A study of Mus musculus with 6 samples.

Results

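The ELOVL genes encode the enzymes that lengthen fatty acids, and all 7 of them, Elovl1 to Elovl7, were described in sciatic nerves of mice that had lost Zeb2 from Schwann cells. They were taken by symbol from a table of 20239 named genes, with 1 probe set each, and all 7 were measured. The mouse line carries DhhCre::Sip1 flox/flox in the 3 mutants, where Cre recombinase under Desert hedgehog control removes the floxed gene from the Schwann cell lineage. Sip1 is another name of Zeb2, a zinc finger transcription factor. The 3 controls were Sip1 flox/flox without Cre, so the presence of Cre and the loss of Zeb2 cannot be told apart. All mice were 25 days old, and 1 whole nerve array was made per animal. Zeb2 itself read 10.96, 10.66 and 11.01 in mutants 1 to 3, against 11.67, 11.57 and 12.02 in controls 1 to 3, on the log2 scale of all values given here. Whether its probes lie in the floxed part is not known.

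Fatty acid elongation takes place on the endoplasmic reticulum, where each turn of a 4-enzyme cycle adds a pair of carbons from malonyl-CoA to an acyl-CoA. An ELOVL protein carries out the first, rate-limiting condensation, and each family member accepts acyl chains of a certain length and degree of saturation. ELOVL2 and ELOVL5 lengthen polyunsaturated chains such as arachidonic and eicosapentaenoic acid. ELOVL1, ELOVL3, ELOVL6 and ELOVL7 act on saturated and monounsaturated chains, and ELOVL4 makes the longest chains of both kinds. Myelin, the membrane that Schwann cells wrap around axons, is rich in sphingolipids with saturated and monounsaturated very-long chains.

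The family was selected on its mutant minus control differences in these arrays, so those differences are given as a description, with no test. Elovl2 and Elovl5, the polyunsaturated chain elongases, read higher in mutant nerves. Elovl1, Elovl4, Elovl6 and Elovl7 read lower, and the values of Elovl3 overlapped. In 6 of the 7 genes the 3 mutant values did not overlap the 3 control values, 2 of them higher and 4 lower. Over all genes 28.1% had groups that did not overlap, 16.3% higher and 11.8% lower. In the limma fit over all genes the same 6 were under an adjusted p of 0.05, where 9.62% of all genes were, and nothing is read from this count because the contrast helped to choose the family. The median difference, mutant minus control, was −1.20 over the 7 members and −0.02 over all genes. In whole nerves, fewer cells of a type and less RNA per cell cannot be told apart.

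**Figure D1:**
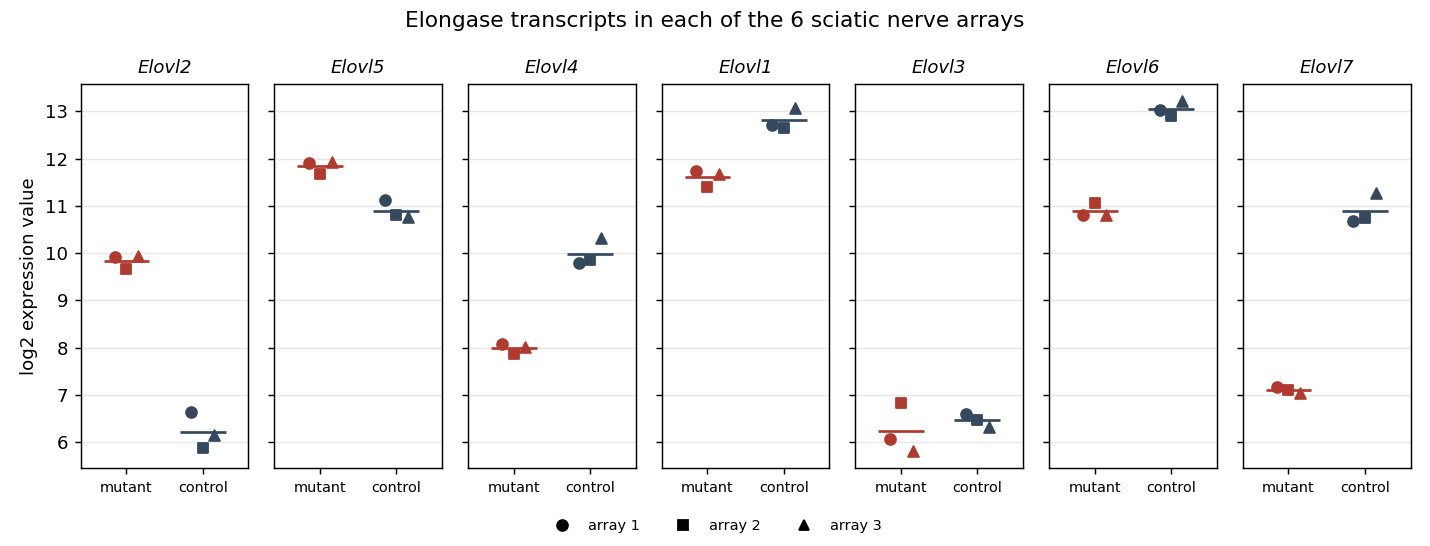
Log2 expression value (vertical axis) of each elongase in the 3 mutant arrays (red, left) and the 3 control arrays (dark, right), with the array number as the symbol and the group mean as a line. Mutant values lie above the controls for Elovl2 and Elovl5, below them for Elovl4, Elovl1, Elovl6 and Elovl7, and among them for Elovl3.

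Elovl2, which lengthens the longer polyunsaturated acids on the way to docosahexaenoic acid, gave the largest positive difference of the family. It read 9.91, 9.67 and 9.93 in mutants 1 to 3, against 6.63, 5.88 and 6.14 in controls 1 to 3. The lowest mutant stood 3.03 log2 units above the highest control. The difference was 3.62 (SE 0.19, 12.3-fold higher, n = 3 each), and only 7 of the 20239 genes had a larger positive one. The control values may be background. Probe sets of 1098 olfactory receptor genes, known mainly from the nose, read a median of 5.63 over the 6 arrays, with a 95th percentile of 7.50. Xist in males and 3 Y-linked genes in females read 4.29 to 5.62. The control values of Elovl2 lay above that range and under the 95th percentile. Where a control reading is background, the fold difference is compressed, and what level of Elovl2 a control nerve holds cannot be stated.

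Elovl5, which lengthens polyunsaturated chains with fewer carbons than ELOVL2 and is expressed in most tissues, differed the same way and by less. Mutants 1 to 3 read 11.91, 11.68 and 11.92, against 11.12, 10.81 and 10.77 for controls 1 to 3. No mutant value overlapped a control value, and the closest pair, mutant 2 and control 1, lay 0.56 log2 units apart. The difference was 0.94 (SE 0.13, 1.92-fold higher).

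Elovl7, an elongase of saturated long chains, gave the largest negative difference of the family. It read 7.18, 7.10 and 7.03 in mutants 1 to 3, against 10.68, 10.74 and 11.26 in controls 1 to 3. The difference was −3.79 (SE 0.16, 13.9-fold lower), and 13 of the 20239 genes had a more negative one. All 3 mutant values lay under the 95th percentile of the olfactory receptor probe sets, 7.50, and above their median, 5.63, and above the sex-linked readings in the other sex, at most 5.62, so the mutant level may be background and the fold compressed. The closest arrays of the groups, mutant 1 and control 1, lay 3.502 log2 units apart. The mutant arrays were close to each other, with an SD of 0.07, and the control arrays had an SD of 0.32.

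Elovl6, which lengthens palmitate to stearate and supplies the main long chains of newly made fat, read 10.81, 11.06 and 10.81 in mutants 1 to 3. Controls 1 to 3 read 13.03, 12.90 and 13.22. The highest mutant and the lowest control, both numbered 2, lay 1.84 log2 units apart. The difference was −2.15 (SE 0.12, 4.45-fold lower). Without mutant 2 and control 2, the arrays with the most muscle RNA, it was −2.31, a shift larger than the SD between arrays. With the mean of skeletal muscle markers as a covariate it was −2.15. Mutant 2 also had the highest means of white and brown adipocyte markers among the mutants, 11.48 and 9.13. The cause of the shift was not tested.

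Elovl4, which builds the ultra-long chains known from skin ceramides and from the lipids of the retina, read 8.07, 7.87 and 8.02 in mutants 1 to 3. In controls 1 to 3 it read 9.80, 9.85 and 10.31. The difference was −2.00 (SE 0.15). Every control array stood at least 1.73 log2 units above every mutant array.

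Elovl1, which makes the saturated and monounsaturated very-long chains of sphingolipids, differed least among the members that were lower in mutants. It read 11.74, 11.39 and 11.68 in mutants 1 to 3, against 12.71, 12.64 and 13.08 in controls 1 to 3, with no overlap. The difference was −1.20 (SE 0.15, 2.30-fold lower).

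Elovl3, an elongase of saturated and monounsaturated chains known from sebaceous glands and brown fat, read 6.06, 6.84 and 5.82 in mutants 1 to 3. Controls 1 to 3 read 6.60, 6.46 and 6.32 and lay between mutant 2 and the other mutants. All 6 values were under the 95th percentile of the olfactory receptor probe sets, so the array may not have detected the transcript. The difference was −0.22 (SE 0.25), −0.52 without mutant 2 and −0.01 without mutant 3. The mean of 7 brown adipocyte markers ran from 7.93 to 9.13 in mutants, highest in mutant 2, and from 8.43 to 9.94 in controls, and its part in these values was not tested.

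The directions held in both sexes for the 6 genes that did not overlap. Xist and Y-linked genes placed mutants 1 and 2 as male and mutant 3 as female, and controls 1 and 2 as female and control 3 as male. Within males, with 2 mutants and 1 control, Elovl2 differed by 3.64 and Elovl7 by −4.12. Within females, with 1 mutant and 2 controls, they differed by 3.67 and −3.68. Elovl5 differed by 1.03 in males and 0.96 in females, and Elovl6 by −2.28 and −2.15. Elovl1 gave −1.51 in males and −0.99 in females, and Elovl4 gave −2.34 and −1.80. Elovl3 gave 0.13 in males and −0.71 in females. The differences between the sexes were not tested.

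**Figure D2:**
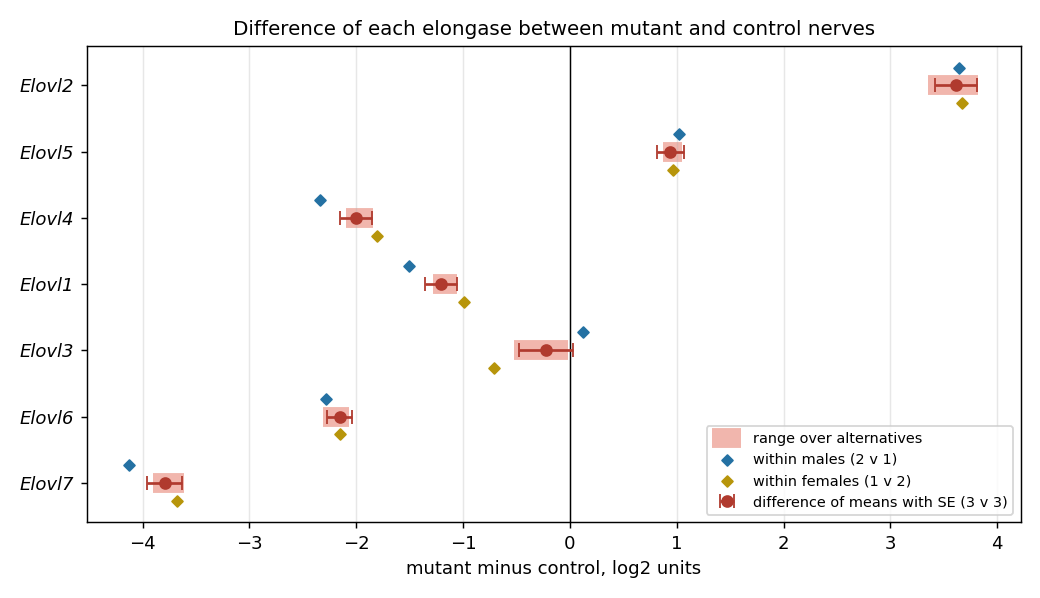
Mutant minus control difference of each elongase on the log2 scale (horizontal axis), as the difference of means with its SE (red), within males (blue) and within females (gold), over the range of the alternative settings (pale bar). Elovl2 and Elovl5 lie to the right of 0, and Elovl4, Elovl1, Elovl6 and Elovl7 to the left in every setting. The bar of Elovl3 stays left of 0 while its male value, 0.13, lies to the right.

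Among the control arrays, number 3 gave the highest value of Elovl1, Elovl4, Elovl6 and Elovl7 and the lowest of Elovl5. The same array had the highest mean of the myelinating Schwann cell markers, 12.52 against 12.10 in control 1 and 12.12 in control 2. Among the mutant arrays, number 2 was lowest for Elovl1, Elovl2, Elovl4 and Elovl5 and highest for Elovl3 and Elovl6. That array had the lowest mean of myelinating Schwann cell markers, 9.31, against 9.69 in mutant 1 and 9.68 in mutant 3. With 3 arrays a group these orders are a description only.

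The promoters of Elovl2, Elovl4, Elovl5 and Elovl7 are shown because Zeb2 is known to bind CACCTG, often as a pair of copies. These genes include the largest difference of each sign. The choice leaves out Elovl6, which was lower by more than Elovl4 (−2.15 against −2.00) and held no CACCTG in its window. The printed genes therefore do not show how the motif goes with direction over the family. RefSeq gave 8 promoter windows for 6 members, each from 250 bases before a transcript start to 50 after it (build GRCm38.p6), and Elovl3 had none. For these genes the bases printed here all lie before the whole gene, 5′ to 3′ on the strand of the gene. CACCTG or its reverse complement CAGGTG, and the palindromic E-box CACGTG, are in capitals. The regions are chr13:108214154-108214325 on the plus strand for Elovl7, chr9:83806306-83806555 on the minus strand for Elovl4, chr13:41220404-41220653 on the minus strand for Elovl2 and chr9:77917115-77917364 on the plus strand for Elovl5.
Elovl7: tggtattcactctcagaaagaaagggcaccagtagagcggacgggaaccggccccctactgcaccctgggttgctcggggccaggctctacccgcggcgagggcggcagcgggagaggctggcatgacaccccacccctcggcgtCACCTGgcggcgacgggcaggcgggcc
Elovl4: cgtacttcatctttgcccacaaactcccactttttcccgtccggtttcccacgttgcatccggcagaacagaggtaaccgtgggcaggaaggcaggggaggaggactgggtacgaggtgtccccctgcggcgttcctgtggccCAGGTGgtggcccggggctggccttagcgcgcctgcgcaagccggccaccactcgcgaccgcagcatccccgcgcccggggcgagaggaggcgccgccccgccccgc
Elovl2: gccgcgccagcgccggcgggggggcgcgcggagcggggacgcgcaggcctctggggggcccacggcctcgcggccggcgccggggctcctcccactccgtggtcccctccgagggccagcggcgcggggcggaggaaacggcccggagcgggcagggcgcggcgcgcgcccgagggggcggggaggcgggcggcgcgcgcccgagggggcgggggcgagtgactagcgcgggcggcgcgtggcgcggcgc
Elovl5: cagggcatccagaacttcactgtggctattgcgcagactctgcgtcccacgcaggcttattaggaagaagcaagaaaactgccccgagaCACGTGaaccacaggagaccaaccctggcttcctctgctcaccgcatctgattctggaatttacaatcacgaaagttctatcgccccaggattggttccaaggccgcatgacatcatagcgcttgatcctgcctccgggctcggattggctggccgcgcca

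Elovl7 held CACCTG in 2 places in its window, counting both strands, at base −105 and at base −37 from the transcript start. Of 32851 windows, 20.2% held the motif at least once and 2.88% at least 2 times. The second copy lies past the first annotated start of the gene, at chr13:108214355-108214384 on the plus strand. Elovl1 held a copy at base −8 of its second start, at chr4:118429681-118429710 on the plus strand. That Elovl1 stretch lies inside the gene, which spans chr4:118426874-118432953.
Elovl7 at −37: tgggagagccggCAGGTGccaccctaccgc
Elovl1 at −8: gatctagtcagaCAGGTGgagccgccaggg
Elovl4 held the motif at base −107. Neither window of Elovl2 held it, nor the first window of Elovl1, nor the windows of Elovl5 and Elovl6. CACGTG was found at base −161 of Elovl5 and at base 6 of Elovl4, and in 7.15% of all windows. A match is a stretch of letters and not a measured binding site.

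The other enzymes of the elongation cycle were measured next, with the limma test over all genes and Benjamini-Hochberg adjustment (genes passed under an adjusted p of 0.05, as did 5.74% of all genes higher and 3.89% lower). Of 6 genes 2 fell, 1 rose and 3 did not pass, and the median difference was −0.18. Hsd17b12, the 3-ketoacyl-CoA reductase of the second step, read 9.86, 9.80 and 9.76 in mutants and 10.67, 10.49 and 10.57 in controls 1 to 3 and fell by 0.77 on the log2 scale (SE 0.08, limma adjusted p = 0.00259). Tecr, the enoyl-CoA reductase of the last step, fell by 0.50 (SE 0.09, adjusted p = 0.0181). Hacd4, of the dehydratases of the third step, rose by 0.85 (SE 0.16, adjusted p = 0.0193), while Hacd1, Hacd2 and Hacd3 differed by −0.01, −0.18 and −0.18 and did not pass. The call of Hacd4 was lost without mutant 1, mutant 3, control 2 or control 3 (adjusted p between 0.0579 and 0.0889). That of Tecr was lost without mutant 1, mutant 3 or control 3 (between 0.0522 and 0.0987).

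Desaturases, some of which set the saturation of the chains that elongases receive, fell or did not pass. Of 8 genes 3 fell and none rose, with a median of −0.38. Fads1, the last desaturase on the way to arachidonic and eicosapentaenoic acid, read 11.72, 11.47 and 11.78 in mutants and 12.54, 12.39 and 12.83 in controls 1 to 3. It fell by 0.93 (SE 0.14, limma adjusted p = 0.0085). Fads3 fell by 0.68 (adjusted p = 0.0395) and Fads6 by 0.47 (adjusted p = 0.0203). Fads2, the first desaturase of polyunsaturated chains, was at −0.52 (adjusted p = 0.114), and passed when same-numbered arrays were paired as a block (adjusted p = 0.0371) or with the white adipocyte mean as a covariate (0.0307). The stearoyl-CoA desaturases Scd1 and Scd2, which make monounsaturated chains, differed by −0.02 and −0.28 and did not pass. Only 1 of the 8 genes fell without mutant 1, mutant 3 or control 2, or without mutant 2 and control 2 together. Fads3 missed the threshold with the block (adjusted p = 0.0509) and without any 1 of mutants 1 to 3 or control 2 (between 0.0742 and 0.157). Fads6 missed it without mutant 1, mutant 3 or control 2 (between 0.0585 and 0.0996).

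Genes that make, break down or are otherwise linked to malonyl-CoA and palmitate, the starting materials of elongation, did not pass. Of 9 genes limma called 0, and 2 were lower and 0 higher at an unadjusted p under 0.05. The smallest p was that of Acss2, which makes acetyl-CoA from acetate, at −0.99 (SE 0.34, adjusted p = 0.140). Acss2 was lower without mutant 2 (−1.39, adjusted p = 0.0118), and 2 genes of the list were lower in that fit and with array weights. Fasn, the fatty acid synthase, was at −0.24, and Acaca, an acetyl-CoA carboxylase, at −0.61, with SEs of 0.33 and 0.38. Fat cells also express these genes, and the mean of 11 white adipocyte markers ran from 10.90 to 11.48 in mutants and from 10.42 to 12.29 in controls. With that mean as a covariate Acss2 was at −0.89 (limma adjusted p = 0.123). Whether fat accounts for these values was not tested.

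Of 13 measured acyl-CoA synthetases and fatty acid transporters 1 fell and 1 rose (median 0.04). Acsl3, a long-chain acyl-CoA synthetase, fell by 1.29 (SE 0.20, limma adjusted p = 0.00958). Acsbg1, a very-long-chain acyl-CoA synthetase, rose by 0.87 (SE 0.18, adjusted p = 0.0272). The rise of Acsbg1 was lost on leaving out mutant 1, mutant 3, control 1 or control 2 (adjusted p between 0.0777 and 0.105).

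The list with the most calls was that of ceramide and galactolipid synthesis, which uses the very-long chains. Of 14 measured genes 7 fell, 1 rose and 6 did not pass, and the median was −0.43. Ugt8a, the galactosyltransferase of galactocerebroside, read 8.37, 7.93 and 8.39 in mutants and 13.18, 13.09 and 13.53 in controls 1 to 3, and differed by −5.03 (limma adjusted p = 6.56e-05). Fa2h, the fatty acid hydroxylase of myelin lipids, differed by −4.45 (adjusted p = 6.56e-05). The count of genes that fell was 6 without any 1 of the arrays other than control 2, and also without mutant 2 and control 2 together.

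Ceramide synthases, which attach chains of different length to the sphingoid base, differed among themselves. Cers4, which prefers long saturated chains, read 9.69, 9.39 and 9.496 in mutants and 11.02, 11.08 and 11.55 in controls 1 to 3, and fell by 1.69 (SE 0.16, limma adjusted p = 0.00168). Cers2, which prefers very-long chains, fell by 0.91 (adjusted p = 0.00903). Cers6, which prefers palmitoyl-CoA, read 10.12, 9.71 and 10.28 in mutants and 8.99, 8.64 and 8.90 in controls 1 to 3, and rose by 1.19 (SE 0.17, adjusted p = 0.00653). Cers5, of the same preference, differed by 0.02 and did not pass. Sptlc2, a subunit of serine palmitoyltransferase, fell by 1.17 (adjusted p = 0.00593), the sulfotransferase Gal3st1 by 1.15 (0.00364) and the desaturase Degs1 by 0.49 (0.0328). The call of Degs1 held without control 2 and was lost without any other 1 array (adjusted p between 0.0723 and 0.104).

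**Figure D3:**
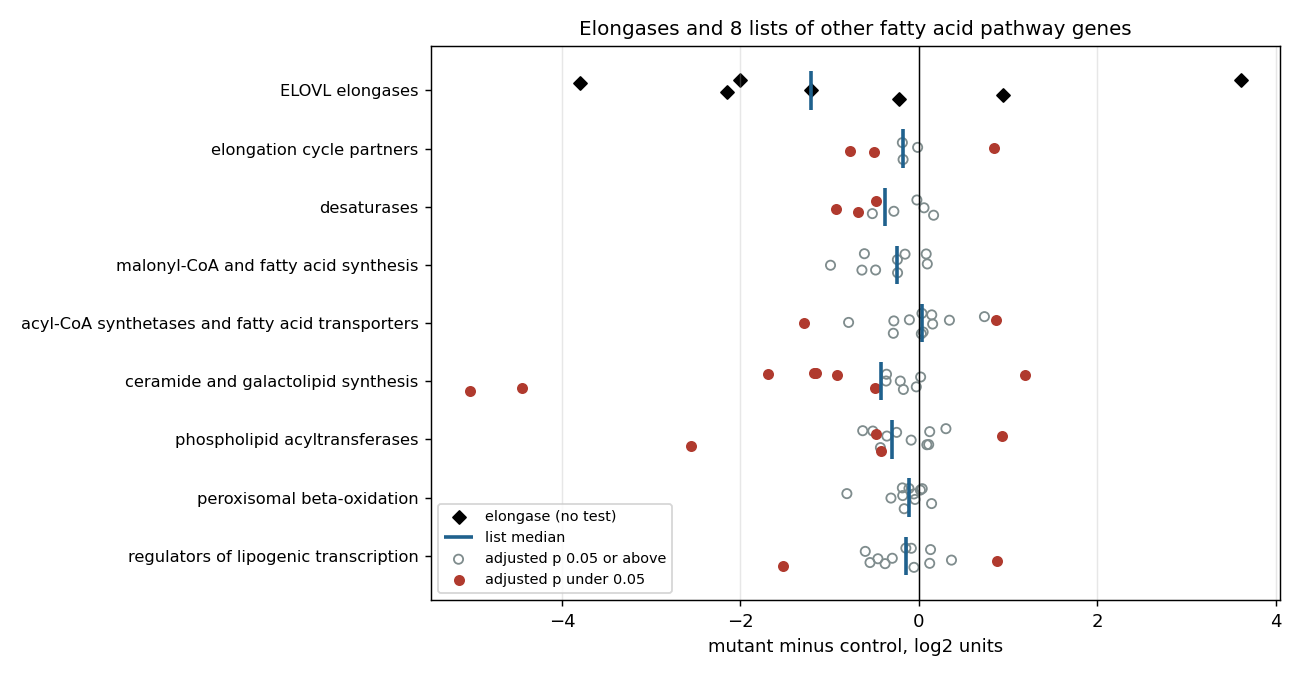
Mutant minus control difference on the log2 scale (horizontal axis) of the 7 elongases (black diamonds, no test) and of 88 genes in 8 other lists of fatty acid metabolism, red where limma gave an adjusted p under 0.05 and open otherwise, with each list's median as a blue line. The elongases run from −3.79 to 3.62, and Ugt8a (−5.03) and Fa2h (−4.45) of the ceramide list lie furthest to the left.

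Of 14 acyltransferases, which place chains on phospholipids, 3 fell and 1 rose (median −0.30), and 5 fell with the white adipocyte mean as a covariate. Mboat1 read 8.76, 8.50 and 8.96 in mutants and 11.12, 11.06 and 11.69 in controls 1 to 3, and fell by 2.55 (SE 0.20, limma adjusted p = 0.00077). The related Mboat2 rose by 0.93 (adjusted p = 0.0283). Agpat3 fell by 0.48 (adjusted p = 0.0109) and Agpat1 by 0.42 (adjusted p = 0.0413). Agpat1 did not pass without any 1 array (adjusted p between 0.0586 and 0.155). Agpat3 did not pass without mutant 1 (0.0602) or mutant 3 (0.0604), and Mboat2 without mutant 1, mutant 3, control 1 or control 2 (between 0.0713 and 0.120).

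Peroxisomal beta-oxidation shortens very-long chains and completes docosahexaenoic acid. Limma called 0 of 11 measured genes of this list, and 0 had an unadjusted p under 0.05. The smallest p was that of Ehhadh, a bifunctional enzyme of the peroxisome, at −0.81 (SE 0.36, adjusted p = 0.255). The median was −0.11.

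Of 13 regulators of lipogenic transcription 1 fell and 1 rose (median −0.14). Insig1, which holds the SREBP precursors in the endoplasmic reticulum and is itself an SREBP target, read 10.68, 11.07 and 10.75 in mutants and 12.36, 12.27 and 12.44 in controls 1 to 3. It fell by 1.52 (SE 0.12, limma adjusted p = 0.000834). Ppargc1a, a coactivator of mitochondrial genes, rose by 0.87 (adjusted p = 0.0173), which did not pass without mutant 1 (0.0628) or mutant 3 (0.0628). Srebf1, a factor known to drive Elovl6, differed by 0.13 (SE 0.22) and did not pass. Srebf2 was at −0.55 (adjusted p = 0.0799) and passed with arrays blocked by number (adjusted p = 0.0385) or with the white adipocyte mean as a covariate (0.0236).

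Over the 8 lists together 17 of 88 genes fell and 5 rose, which is 25% called against 9.62% of all genes. The lists were chosen with earlier results of these data known, so nothing is read from the larger share. The ceramide and galactolipid list alone gave 7 of the genes that fell and 1 of those that rose. Over the 8 lists the counts were 13 and 4 without mutant 2 and control 2. Without mutant 1, 11 fell and 1 rose, and the same numbers were found without mutant 3. Without control 2, 3 rose, and 3 with sex as a covariate. With sex as a covariate Fads3, Acsbg1, Mboat2, Agpat1 and Degs1 missed the threshold (limma adjusted p between 0.0613 and 0.0847). Without mutant 2 and control 2, Fads3, Fads6, Acsbg1, Mboat2, Agpat3, Agpat1 and Degs1 missed it (between 0.0545 and 0.114). Fads3 and Agpat1 missed it with the muscle mean as a covariate (0.0512 and 0.0641), and Fads3 with repeated quantile normalization (0.0531). Fads2, Cers2, Gal3st1, Degs1 and all genes named as not passing, other than Acss2 and Ehhadh, were named after their values were seen.

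For each member the 3 genes nearest in profile were found, by the root mean square distance between mean-centred log2 values over the 6 arrays. This measure uses the group difference and is a description. Elovl6 lay nearest to Tm7sf2 (0.08 log2 units) and Fdft1 (0.15), enzymes of sterol synthesis, which differed by −2.26 and −2.02, and then to Arxes1 (0.16). Elovl1 lay nearest to Gnai1 (0.05), a G protein subunit, Sptlc2 (0.05) and Rnf122 (0.06). Elovl4 lay nearest to Mapk8ip1 (0.03), a scaffold of JNK signalling, then Tspan17 (0.06) and Emp2 (0.08), at differences from −2.04 to −1.87. Elovl7 lay nearest to Cfap100 (0.06), Ankfn1 (0.16) and Ddn (0.19). The nearest to Elovl5 were Ccnd3 (0.04), a D-type cyclin, Ninj1 (0.05), an adhesion protein of injured nerve, and the tubulin Tubb6 (0.05), at 0.87 to 0.94. Elovl2 had more distant neighbours, the ferric reductase Cybrd1 (0.22), Otogl (0.23) and Prss35 (0.27). The nearest to Elovl3 were Lce1i (0.07), a gene of the skin, and the olfactory receptor genes Olfr1196 (0.08) and Olfr635 (0.11). Some of these neighbours also read under 7.50, the 95th percentile of the olfactory receptor probe sets, and may be background there. Cfap100, Ankfn1, Ddn and Arxes1 did so in all mutants, Otogl in all controls and Lce1i in both groups.

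Markers of the cell types of the nerve were read in the same arrays. All 9 measured markers of myelinating Schwann cells fell, and their mean ran from 9.31 to 9.69 in mutants and from 12.10 to 12.52 in controls. Markers of the Schwann cell lineage ran from 9.76 to 10.20 in mutants and from 10.43 to 11.11 in controls, with 2 of 5 lower. Of 9 markers of immature or nonmyelinating Schwann cells 5 rose and 1 fell, and the mean ran from 10.34 to 10.84 in mutants and from 9.41 to 9.82 in controls. Perineurial markers ran from 11.14 to 11.34 in mutants and from 10.11 to 10.46 in controls, with 5 of 7 higher, and fibroblast markers from 12.02 to 12.32 in mutants and from 11.62 to 11.86 in controls, with 4 of 8 higher. These means separated the groups as the elongases did, and their part in the elongase values was not tested.

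Muscle and fat varied between arrays without separating the groups. Averaged over 18 genes of skeletal muscle, mutants 1 to 3 read 7.59, 12.34 and 9.94, against 7.68, 12.39 and 10.48 for controls 1 to 3. The most and the least muscle-rich array were 27.8-fold apart. Of 11 white adipocyte markers none passed. Of 7 brown adipocyte markers 1, Ppargc1a, passed as higher and none passed as lower. The other brown adipocyte markers all had negative differences, and the mean of the list differed by −0.90. Ucp1 was at −2.24 (limma adjusted p = 0.323) and Cidea at −1.83 (0.228). With the muscle mean as a covariate Elovl6 differed by −2.15 and Elovl2 by 3.59. With the white adipocyte mean as a covariate they differed by −2.17 and 3.65. The means of 7 macrophage, 6 endothelial and 8 neuronal markers spanned 0.60, 0.42 and 0.54 log2 units over the 6 arrays.

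**Figure D4:**
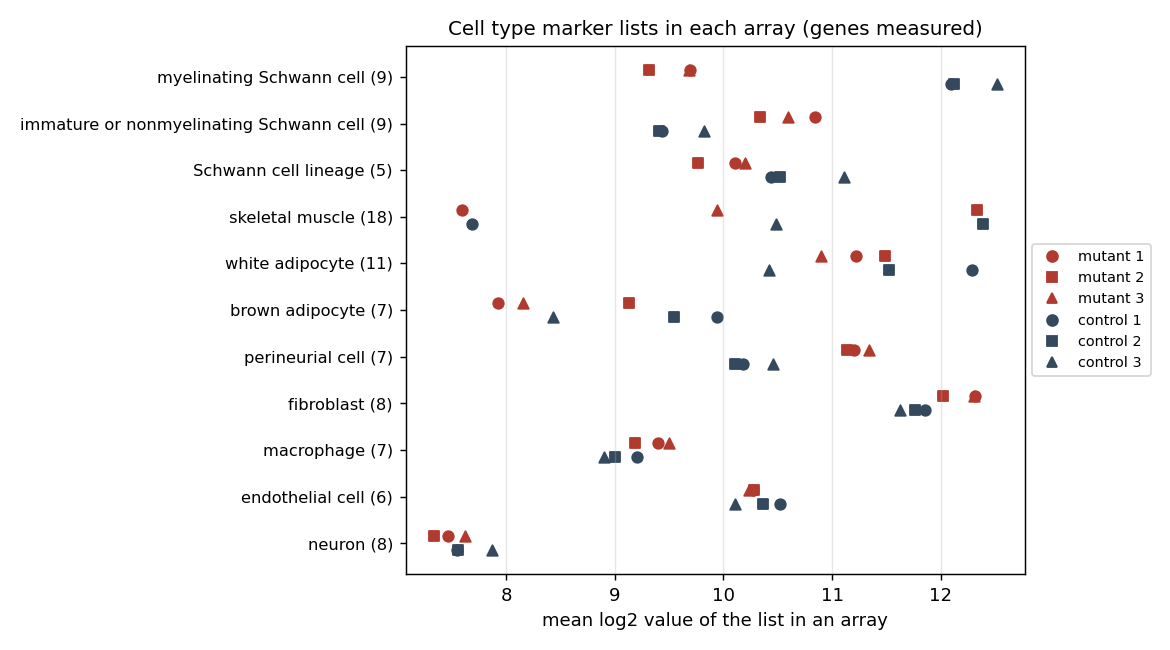
Mean log2 value (horizontal axis) of 11 cell type marker lists in each of the 3 mutant (red) and 3 control (dark) arrays, with the array number as the symbol and the number of measured genes in brackets. Myelinating Schwann cell markers lie lower in all mutants. The skeletal muscle mean, from 7.59 to 12.39, is alike between same-numbered arrays and highest in number 2 of each group.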

How the data were processed

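Total RNA of sciatic nerves, 3 mutant and 3 control mice, had been hybridised to 1-colour Affymetrix whole-transcript arrays after amplification with an Ambion kit, per the labels' protocols. The authors deposited 1 table of log2 values, 21225 probe sets by 6 arrays. The log base was read from the values (3.55 to 14.52, array medians 7.99 to 8.08). The sources used here do not state how background was corrected or arrays were normalized. Limma is listed, with no role, per the submitters' processing notes. Precision is limited by the number of arrays, since an array has no read depth.

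Symbols came from the platform annotation, updated by Entrez number to RefSeq (GRCm38.p6), which gave 1 symbol to 20239 probe sets, several to 0 and none here to 986. The test was limma 3.58.1 under R 4.3.3 on every named gene (lmFit, eBayes, two-sided, mutant minus control), with Benjamini-Hochberg adjustment over all named genes. The fit was also run on simulated data with independent noise, which lack the likeness of same-numbered arrays. Nothing is read from that run. SE is the moderated standard error. Promoter sequences are RefSeq's, and figures were drawn with matplotlib 3.10.9. Columns from samples of other studies numbered 0.

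The labels call the samples biological replicates and give both groups the numbers 1 to 3. Deviations from group means correlated between same-numbered arrays at 0.36, 0.574 and 0.295, so the replicate number as a block was used as a paired alternative. No array repeated another (largest correlation 0.9947, mutants 3 and 1).

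The members and lists were chosen with earlier results of these data known. Named were Zeb2, all members, in each of 8 lists up to 4 genes that passed, by size of change, or else the gene of smallest p, and the 3 nearest profiles of each member spanning at least 1 log2 unit. Of 93 listed genes 88 were measured, and the others were not analysed here. Means of marker lists served as scores, and Xist with Y-linked genes gave the sex. Alternatives dropped the dimmest 25% of genes, repeated quantile normalization, centred medians, added 16 to linear values, used a trended robust prior, array weights, the block, every probe set, or sex, muscle or white adipocyte scores as covariates, and left out arrays singly or mutant 2 with control 2.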

Additional observations from a re-analysis of the deposited data

How the results depend on the processing

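Under 18 alternatives each of Elovl1, Elovl2, Elovl4, Elovl5, Elovl6 and Elovl7 kept its sign. Elovl1 ran from −1.29 to −1.06, Elovl2 from 3.35 to 3.82, Elovl4 from −2.10 to −1.84, Elovl5 from 0.88 to 1.05, Elovl6 from −2.31 to −2.07 and Elovl7 from −3.90 to −3.61. Elovl3 ran from −0.52 to −0.01 (without mutant 3) under 17 alternatives and was absent from the table without the lowest 25% of genes. Over all genes 1161 were higher and 787 lower. With array weights 2411 were higher and 1244 lower, and without mutant 2 and control 2, 453 were lower. Leaving out 1 array gave 502 to 1397 genes higher and 392 to 744 lower, 504 and 392 without mutant 1, 502 and 408 without mutant 3, and 742 higher without control 2. Of the pathway genes 5 rose, 3 with sex as a covariate and 1 to 5 with 1 array left out, and 17 fell, 11 to 16 with 1 array left out. The cause was not tested, and fits without an array have fewer samples. With the replicate number as a block 1205 genes were higher and 842 lower, and of the named genes only Fads3, Fads2 and Srebf2 changed call. The low readings of Elovl3, of Elovl2 in controls and of Elovl7 in mutants limit what these arrays can show of those levels.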
